A study of Mus musculus with 16 samples.

Results

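The genes described here are 9 keratins of the epidermis: Krt5, Krt14 and Krt15, which mark its basal layer, and Krt1, Krt10, Krt2, Krt77, Krt78 and Krt80, found in layers above it or in ducts and other differentiating epithelia. They were chosen by name, and each of the 9 was found once among the 26357 genes of the count table. RNA-seq counts came from 16 mouse libraries in 4 groups of 4: IL-23 with oral dosing, vehicle with oral dosing, IL-23 with intraperitoneal dosing and vehicle with intraperitoneal dosing. IL-23 is the cytokine that sustains IL-17-producing T cells, and the study concerns psoriasiform dermatitis in mice. In all 4 groups the agent was combined with a vehicle at 0 mpk, and the routes are those of its dosing as the labels give them. The labels name no tissue, harvest day, strain, sex or age, and do not say how IL-23 was given or whether libraries came from separate animals. The p-values therefore measure the spread between these samples, which may be technical. The question is how IL-23 changed each keratin relative to vehicle within each dosing route, and whether that change differed between routes.

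Keratins form intermediate filaments as pairs of an acidic type I and a basic type II protein. Keratin 5 (type II) pairs with keratin 14 (type I) in dividing basal cells, and cells that leave the basal layer switch to keratin 1 (type II) and keratin 10 (type I). Keratin 15 is a type I keratin of basal cells and of the hair follicle bulge, and keratin 2 is a type II keratin of the upper living layers that is prominent in the ear, sole and tail skin of mice. In psoriasis and in wounds, keratins 6, 16 and 17 appear in the interfollicular epidermis, where they are normally scarce.

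Krt14, Krt15 and Krt10 lie in the type I cluster on mouse chromosome 11, and the other 6 lie in the type II cluster on chromosome 15 (GRCm38, GENCODE M21). On chromosome 11 these are Krt14 (gene ID 16664, chr11:100203162-100207548), Krt15 (16665, chr11:100131758-100135928) and Krt10 (16661, chr11:99385254-99389364). On chromosome 15 these are Krt5 (110308, chr15:101707070-101712898), Krt1 (16678, chr15:101845426-101850794) and Krt2 (16681, chr15:101810689-101818169). The less abundant Krt77 (406220, chr15:101858731-101869705), Krt78 (332131, chr15:101946001-101954287) and Krt80 (74127, chr15:101347444-101370162) lie in the same cluster. All 9 are read from the minus strand. Krt1 stands between Krt2 and Krt77, which are its nearest protein-coding neighbours in RefSeq, and those 3 neighbours behaved differently under IL-23.

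For that reason the 250 bases before the start in the promoter entry are shown for Krt2 and Krt77, and for Krt10, the partner of keratin 1, from RefSeq (GRCm38.p6). RefSeq promoter entries were matched for 6 of the 9 keratins. Those of Krt10, Krt2 and Krt78 border the GENCODE spans above. They lie inside the longer RefSeq gene spans, which reach 99397449, 101818956 and 101996624. The sequences read 5′ to 3′ along the gene, and capitals mark a match to a searched motif.
Krt10, chr11:99389365-99389614, minus strand: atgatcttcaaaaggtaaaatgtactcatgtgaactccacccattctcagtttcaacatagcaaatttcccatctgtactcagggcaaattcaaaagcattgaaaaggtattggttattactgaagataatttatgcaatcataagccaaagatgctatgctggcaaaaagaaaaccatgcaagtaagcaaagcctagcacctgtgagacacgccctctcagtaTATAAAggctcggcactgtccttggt
Krt2, chr15:101818170-101818419, minus strand: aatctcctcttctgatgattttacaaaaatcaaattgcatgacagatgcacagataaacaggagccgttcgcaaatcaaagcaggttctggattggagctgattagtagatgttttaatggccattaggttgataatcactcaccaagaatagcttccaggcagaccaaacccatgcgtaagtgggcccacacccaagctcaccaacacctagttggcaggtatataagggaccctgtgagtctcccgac
Krt77, chr15:101869706-101869955, minus strand: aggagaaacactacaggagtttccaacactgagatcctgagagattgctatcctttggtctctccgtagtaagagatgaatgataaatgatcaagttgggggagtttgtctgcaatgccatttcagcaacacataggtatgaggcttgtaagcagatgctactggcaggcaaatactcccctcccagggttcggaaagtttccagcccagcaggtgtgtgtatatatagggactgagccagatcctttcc
On both strands of each 300-base entry, which adds 50 bases after the start, 4 motifs were searched, namely the TATA box TATAAA, the AP-1 motif TGANTCA, the STAT motif TTCNNNGAA and the AP-2 motif GCCNNNGGC. The match in Krt10 was TATAAA at position -26, and TATAAA is held by 13.6% of the 32851 promoter entries. None of the 4 motifs matched exactly in the entries of Krt5, Krt2, Krt77 or Krt78. Near forms of TATAAA were not searched. The printed sequences of Krt2 and Krt77 hold tatataag and tatatata near their ends, so the search does not show that either lacks a TATA box. The entry of Krt14 held none either, but it lies inside the gene span given above and not before its start. TGANTCA is held by 7.81% of all entries, TTCNNNGAA by 8.3% and GCCNNNGGC by 16.6%. A match is a run of letters in this window, not a bound site.

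Library totals ran from 6381990 to 10078531 counts in the 8 IL-23 libraries and from 7159325 to 14432930 in the 8 vehicle libraries, and the smallest count of any keratin in any library was 19 (Krt77). The 9 keratins took 5.46% ± 0.23 of all counts with IL-23 and oral dosing, against 3.57% ± 0.41 with vehicle and oral dosing (SD, n = 4 each). With intraperitoneal dosing they took 5.55% ± 1.21 in IL-23 libraries and 3.603% ± 0.157 in vehicle libraries (SD, n = 4 each). Libraries are named here by the number that opens their title, and 3 of them stood apart in these genes. IL-23 intraperitoneal library 25 was the highest of its group for 9 of 9 keratins, library 28 of the same group was the lowest for 9 of 9, and vehicle oral library 51 was the lowest of its group for 9 of 9. Library 28 also stood at -62.5 on the second principal component of all genes, where the other 15 lay between -14.1 and 20.9. Its summed level of 12 interferon response genes was 1740.2 CPM, against 203 to 328 CPM in the other 7 IL-23 libraries. The tests of the 9 keratins were repeated without each library in turn, and the counts of the gene lists without library 25 or library 28.

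Levels are CPM, read counts scaled to library size with TMM factors, and folds are log2 fold changes, IL-23 over vehicle, with a standard error (SE). Adjusted p-values are from edgeR's quasi-likelihood test with Benjamini-Hochberg adjustment over 14671 genes, called below 0.05. With oral dosing 5 of the 9 keratins rose, 2 fell and 2 did not pass, where 63.3% of all genes tested were called, 29.2% higher and 34% lower. With intraperitoneal dosing 5 rose, 1 fell and 3 did not pass, against 61.7% of all genes called, 30.8% higher and 30.9% lower. So large a background means that these counts alone do not set the keratins apart, and the size and direction gene by gene carry the description. Without library 25, 6 rose, 3 fell and 0 did not pass with oral dosing, and 3 rose, 3 fell and 3 did not pass with intraperitoneal dosing. Without library 28 the counts were 6, 3 and 0 with oral dosing and 6, 1 and 2 with intraperitoneal dosing. Both libraries are intraperitoneal, but all 4 groups share 1 estimate of the spread per gene, so oral calls can change as well. The oral median log2 fold change was 0.51 without library 25 and 0.54 without library 28. Over all genes, 9464 and 9768 were called with oral dosing without library 25 and 28, against 9280 with all libraries. With intraperitoneal dosing, leaving out single libraries gave 8310 to 9092 genes called, against 9056 with all. With all libraries, the median log2 fold change was 0.51 with oral dosing, against -0.06 over all genes, and 0.44 with intraperitoneal dosing, against -0.02. In bulk RNA, fewer cells of a type and less RNA per cell cannot be told apart.

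**Figure D1:**
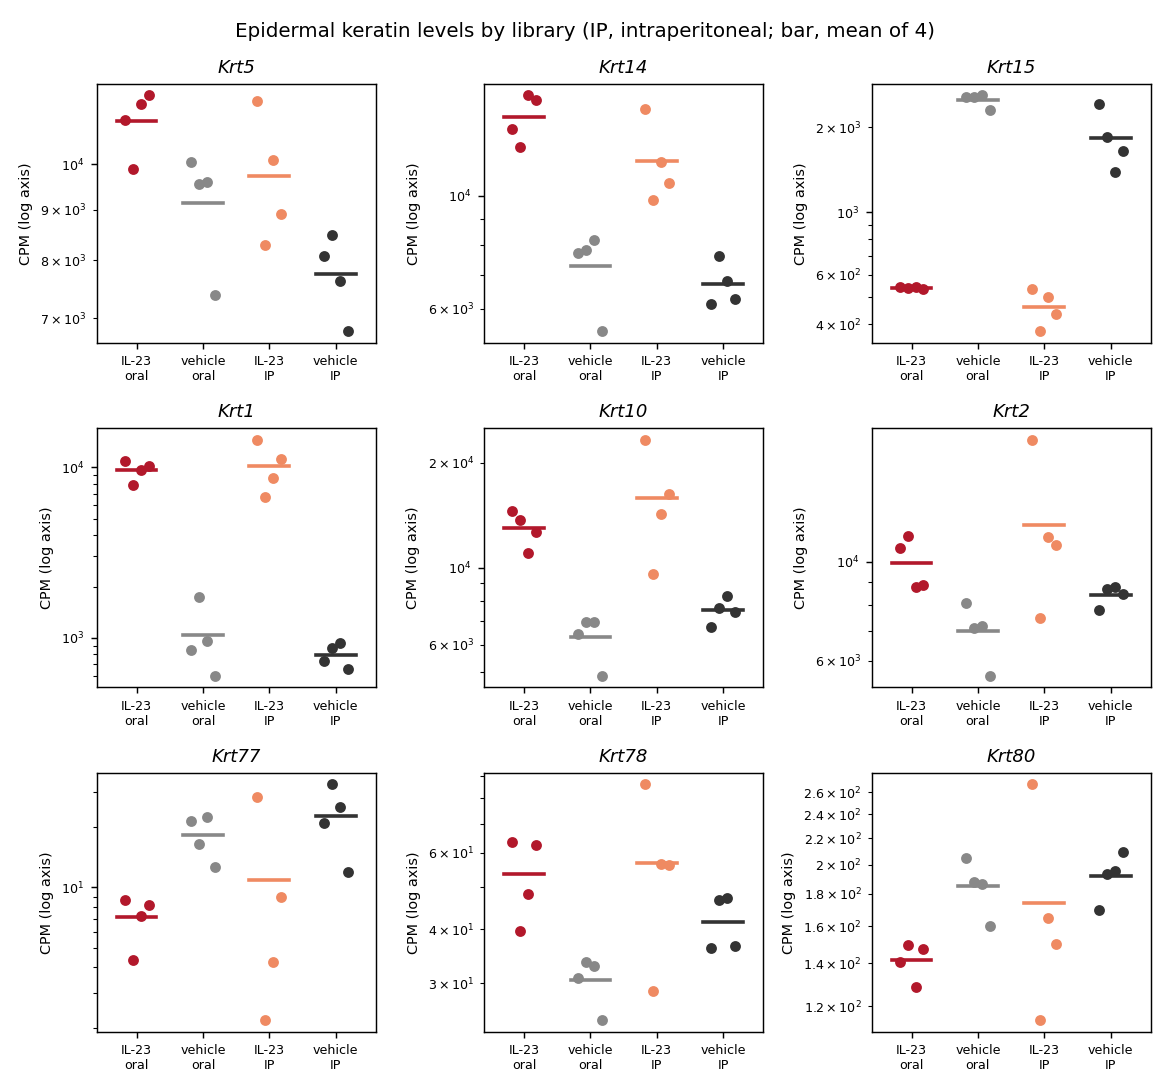
CPM on a log axis of each of the 9 keratins in every library (points) with the mean of the 4 libraries (bar), for IL-23 and vehicle with oral and with intraperitoneal (IP) dosing. Krt1 and Krt15 show a wide gap between IL-23 and vehicle libraries in opposite directions, while Krt5 overlaps in both routes.

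Of the basal pair, Krt14 rose in both routes and Krt5 passed the test in 1. Krt14 had 13536, 12475, 15733 and 15376 CPM in the 4 IL-23 oral libraries, against 7732, 7821, 8173 and 5423 CPM in the 4 vehicle oral libraries. Under intraperitoneal dosing Krt14 had 14766, 9814, 11619 and 10606.5 CPM with IL-23, against 6128, 7617, 6813 and 6281 CPM with vehicle. Every IL-23 library lay above every vehicle library of its route. The log2 fold change of Krt14 was 0.97 ± 0.15 (SE; 1.96-fold; edgeR adjusted p = 3.59e-05) with oral dosing and 0.80 ± 0.15 (1.74-fold; edgeR adjusted p = 0.000243) with intraperitoneal dosing. Of the 50-base windows of its longest coding transcript, 14.4% occur exactly in Krt16 or Krt17 transcripts, so its value could hold reads of those genes, depending on how reads with several places were handled.

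Krt5 had 11074, 9884, 11498 and 11731 CPM in IL-23 oral libraries, against 10043, 9557, 9596 and 7380.4 CPM in vehicle oral libraries. With intraperitoneal dosing it had 11588, 8289, 10095 and 8919 CPM with IL-23, against 8087, 8482, 7631 and 6793 CPM with vehicle. The groups overlapped in both routes. Its log2 fold change was 0.27 ± 0.13 (SE) with oral dosing, which did not pass (edgeR adjusted p = 0.0754), and 0.33 ± 0.13 with intraperitoneal dosing, which did (edgeR adjusted p = 0.0364). The intraperitoneal call was lost on leaving out IL-23 library 25 or 31, or vehicle library 49, 59 or 67, with 0.24 (edgeR adjusted p = 0.114) without library 25, and the oral change passed without intraperitoneal library 25 (0.28, edgeR adjusted p = 0.0458) or 28 (0.30, edgeR adjusted p = 0.0399). The oral change also passed with RLE factors (0.31, edgeR adjusted p = 0.0484) and in DESeq2 (0.31, adjusted p = 0.0161), and the intraperitoneal one did not when the 2 intraperitoneal groups were fitted alone (0.32, edgeR adjusted p = 0.0744). Of its 50-base windows, 8.52% are shared exactly with other genes, among them Krt6a and Krt6b.

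Krt15, the third basal keratin, fell in both routes while Krt14, also type I, rose. It had 543.9, 536, 544.0 and 534 CPM in IL-23 oral libraries, against 2559, 2555, 2596 and 2313 CPM in vehicle oral libraries. By the intraperitoneal route it had 532, 378, 499 and 434 CPM with IL-23, against 2426, 1851, 1388 and 1643 CPM with vehicle. The groups lay far apart in both routes, and the 4 IL-23 oral libraries stood close together. Krt15 fell by 2.22 ± 0.14 on the log2 scale with oral dosing (SE; 4.65-fold lower; edgeR adjusted p = 5.11e-09) and by 1.99 ± 0.14 with intraperitoneal dosing (3.96-fold lower; edgeR adjusted p = 1.81e-08). It shares 0.666% of its windows with other genes.

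Krt1 had the largest change of the 9 keratins in both routes. It had 10970.4, 7853, 9610.3 and 10199.5 CPM in IL-23 oral libraries, against 849, 1734, 958 and 601 CPM in vehicle oral libraries. In intraperitoneal libraries it had 14494, 6662, 8652 and 11128 CPM with IL-23, against 728, 877, 929 and 656 CPM with vehicle. The lowest IL-23 library stood several times above the highest vehicle library in each route. Its log2 fold change was 3.22 ± 0.29 with oral dosing (SE; 9.33-fold; edgeR adjusted p = 1.29e-07) and 3.68 ± 0.30 with intraperitoneal dosing (12.8-fold; edgeR adjusted p = 5.42e-08). No 50-base window of Krt1, Krt10, Krt2, Krt77, Krt78 or Krt80 occurred in a transcript of another gene.

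Krt10, the type I partner of Krt1, rose in both routes. It had 14589.6, 13736.5, 10978 and 12662 CPM in IL-23 oral libraries, against 6437, 6956, 6984 and 4888 CPM in vehicle oral libraries. With intraperitoneal dosing it had 23301, 9563, 14303 and 16273 CPM with IL-23, against 6724, 7627, 8286 and 7464 CPM with vehicle. The groups did not overlap, but the IL-23 intraperitoneal libraries spread widely, from library 28 to library 25. The log2 fold change was 1.04 ± 0.20 with oral dosing (SE; 2.06-fold; edgeR adjusted p = 0.000281) and 1.08 ± 0.20 with intraperitoneal dosing (2.11-fold; edgeR adjusted p = 0.000232).

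Krt2, of the upper living layers, changed less. It had 10709, 11412, 8759 and 8848 CPM in IL-23 oral libraries, against 8089, 7105, 7196 and 5568 CPM in vehicle oral libraries. The intraperitoneal libraries had 18705, 7486, 11329 and 10874 CPM with IL-23, against 7810.0, 8691, 8793 and 8484 CPM with vehicle. The oral groups did not overlap, whereas IL-23 library 28 lay below all 4 vehicle intraperitoneal libraries. The log2 fold change was 0.51 ± 0.20 with oral dosing (SE; edgeR adjusted p = 0.0384) and 0.52 ± 0.20 with intraperitoneal dosing (edgeR adjusted p = 0.0354). Both calls were fragile: the oral one was lost on leaving out IL-23 oral library 14 or 24 or vehicle oral library 27, 33 or 51 (edgeR adjusted p up to 0.0989), and the intraperitoneal one on leaving out IL-23 library 25 or vehicle library 49, 50, 59 or 67. Without library 25 the intraperitoneal change of Krt2 was 0.23 (edgeR adjusted p = 0.207).

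Krt77, a type II keratin described in human sweat gland ducts, was the least abundant of the 9. It had 8.69, 4.34, 7.22 and 8.18 CPM in IL-23 oral libraries, against 21.4, 16.4, 22.3 and 12.7 CPM in vehicle oral libraries. In intraperitoneal libraries Krt77 had 28.3, 2.19, 4.27 and 8.94 CPM with IL-23, against 21.03, 32.6, 25.2 and 12.0 CPM with vehicle. IL-23 intraperitoneal library 25 lay among the vehicle libraries, and the other 3 below them. Krt77 fell by 1.37 ± 0.52 on the log2 scale with oral dosing (SE; edgeR adjusted p = 0.0305), and its intraperitoneal change of -1.09 ± 0.51 did not pass (edgeR adjusted p = 0.0718). Without library 25 the intraperitoneal change was -2.19 (edgeR adjusted p = 0.000236), and without vehicle intraperitoneal library 67 it was -1.30 (edgeR adjusted p = 0.045). The oral call was lost on leaving out IL-23 oral library 24 or 26 or vehicle oral library 4 or 33 (edgeR adjusted p up to 0.0853).

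Krt78 and Krt80 are type II keratins of differentiating epithelia and were found at low levels. Krt78 had 63.6, 39.6, 48.2 and 62.5 CPM in IL-23 oral libraries, against 30.9, 33.7, 32.9 and 24.7 CPM in vehicle oral libraries. With intraperitoneal dosing it had 86.2, 28.8, 56.4 and 56.3 CPM with IL-23, against 36.2, 46.7, 47.1 and 36.6 CPM with vehicle. The oral groups did not overlap, and in the intraperitoneal groups library 28 lay below every vehicle library. The log2 fold change of Krt78 was 0.80 ± 0.24 with oral dosing (SE; edgeR adjusted p = 0.00678) and 0.44 ± 0.23 with intraperitoneal dosing, which did not pass (edgeR adjusted p = 0.107) but did without library 28 (0.69, edgeR adjusted p = 0.00232).

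Krt80 had 141, 149.7, 128 and 148 CPM in IL-23 oral libraries, against 205, 188, 187 and 160.4 CPM in vehicle oral libraries. The intraperitoneal libraries had 267, 114, 165 and 150.1 CPM with IL-23, against 169.7, 193, 196 and 209 CPM with vehicle. Each IL-23 oral library lay below each vehicle oral library, while library 25 stood above all 4 vehicle intraperitoneal libraries. Neither change passed, at -0.38 ± 0.17 on the log2 scale with oral dosing (SE; edgeR adjusted p = 0.0641) and -0.14 ± 0.17 with intraperitoneal dosing (edgeR adjusted p = 0.494). Without library 25 Krt80 fell in both routes, by 0.38 with oral dosing (edgeR adjusted p = 0.00496) and by 0.42 with intraperitoneal dosing (edgeR adjusted p = 0.00533); without library 28 it fell by 0.35 with oral dosing (edgeR adjusted p = 0.0304), and the intraperitoneal value was 0.04 (edgeR adjusted p = 0.848). Krt80 was also called lower with oral dosing when the 2 oral groups were fitted alone (-0.36, edgeR adjusted p = 0.00233). RefSeq places Gm35853 and Mir1941 within its span, and how the counting treated reads shared with them is not given in the sources used here.

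Over the 9 keratins, the IL-23 and vehicle groups did not overlap for 8 with oral dosing, 5 higher and 3 lower, where 59.7% of all genes did not overlap, 27.9% higher and 31.8% lower. With intraperitoneal dosing they did not overlap for 4, 3 higher and 1 lower, where 51% of all genes did not, 25.1% higher and 25.9% lower.

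**Figure D2:**
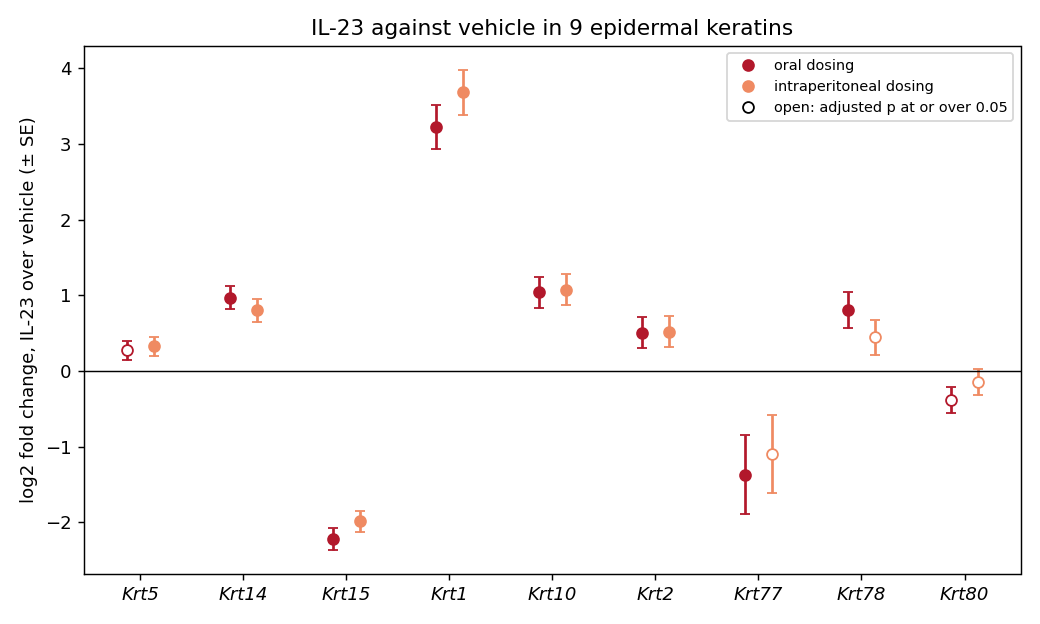
Log2 fold change, IL-23 over vehicle, with its SE for each keratin and each dosing route, filled where the edgeR adjusted p was below 0.05. Krt1 stands highest at 3.22 and 3.68 and Krt15 lowest at -2.22 and -1.99, and the small positive values of Krt5 and Krt2 turn negative when libraries are scaled to pan-epithelial genes.

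The IL-23 effect was not shown to differ between routes for any of the 9 keratins. The difference of log2 fold changes, intraperitoneal minus oral, ran from -0.36 (Krt78) to 0.46 (Krt1), with a smallest edgeR adjusted p of 0.898. For Krt1 the 95% interval of that difference ran from -0.34 to 1.26, which is wide. Over all genes tested 0% were called, with 796 at an unadjusted p below 0.05 and none of them a keratin of the 9, and DESeq2 called 1 gene, no keratin of the 9. Between routes, intraperitoneal against oral, 0 of the 9 and 0% of all genes were called in IL-23 libraries or in vehicle libraries by edgeR. The counts at an unadjusted p below 0.05 were 1874 genes in IL-23 libraries, 0 of them among the 9, and 1087 genes in vehicle libraries, with 1 of the 9, Krt15 (log2 difference -0.46 ± 0.14, SE; edgeR adjusted p = 0.598). DESeq2 called 57 genes between routes in IL-23 libraries and 1 in vehicle libraries, and limma-voom called 0 in each of these 3 comparisons.

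Ratios of counts within a library do not depend on library scaling, and are given as values with no test. The ratio of Krt1 to Krt10 counts averaged 0.751 ± 0.13 in IL-23 oral libraries and 0.160 ± 0.060 in vehicle oral libraries, and 0.652 ± 0.045 in IL-23 intraperitoneal and 0.106 ± 0.012 in vehicle intraperitoneal libraries (SD, n = 4 each). Krt1 thus gained on its type I partner, with no overlap between the agents. Krt2, also type II, lost ground to Krt10, as given below, so the gain does not hold for each type II keratin. In the basal pair the type II member lost ground: Krt5 to Krt14 averaged 0.776 ± 0.038 in IL-23 oral and 1.26 ± 0.08 in vehicle oral libraries, and 0.835 ± 0.036 in IL-23 intraperitoneal and 1.16 ± 0.11 in vehicle intraperitoneal libraries (SD, n = 4 each). Here too the agents did not overlap. Krt14 and Krt5 share 14.4% and 8.52% of their 50-base windows with other genes. Among those are Krt16 and Krt17 for Krt14, and Krt6a and Krt6b for Krt5, which rose with IL-23. Reads of those genes could shift ratios that use Krt14 or Krt5, which was not tested.

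The ratio of Krt14 to Krt15, both type I, averaged 26.5 ± 2.8 in IL-23 oral and 2.89 ± 0.37 in vehicle oral libraries, and 25.3 ± 1.9 in IL-23 intraperitoneal and 3.84 ± 0.99 in vehicle intraperitoneal libraries (SD, n = 4 each). Among the neighbours on chromosome 15, Krt2 to Krt1 averaged 1.05 ± 0.27 in IL-23 oral and 7.60 ± 2.50 in vehicle oral libraries, and 1.18 ± 0.16 in IL-23 intraperitoneal and 10.8 ± 1.5 in vehicle intraperitoneal libraries (SD, n = 4 each). Krt2 to Krt10 averaged 0.765 ± 0.060 in IL-23 oral and 1.11 ± 0.11 in vehicle oral libraries, and 0.761 ± 0.063 in IL-23 intraperitoneal and 1.12 ± 0.04 in vehicle intraperitoneal libraries (SD, n = 4 each). None of these 3 ratios overlapped between the agents within a route. The ratio of Krt10 to Krt14, which sets the suprabasal against the basal type I keratin, did overlap in both routes, at 0.925 ± 0.197 in IL-23 oral and 0.869 ± 0.032 in vehicle oral libraries, and 1.33 ± 0.28 in IL-23 intraperitoneal and 1.13 ± 0.10 in vehicle intraperitoneal libraries (SD, n = 4 each).

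**Figure D3:**
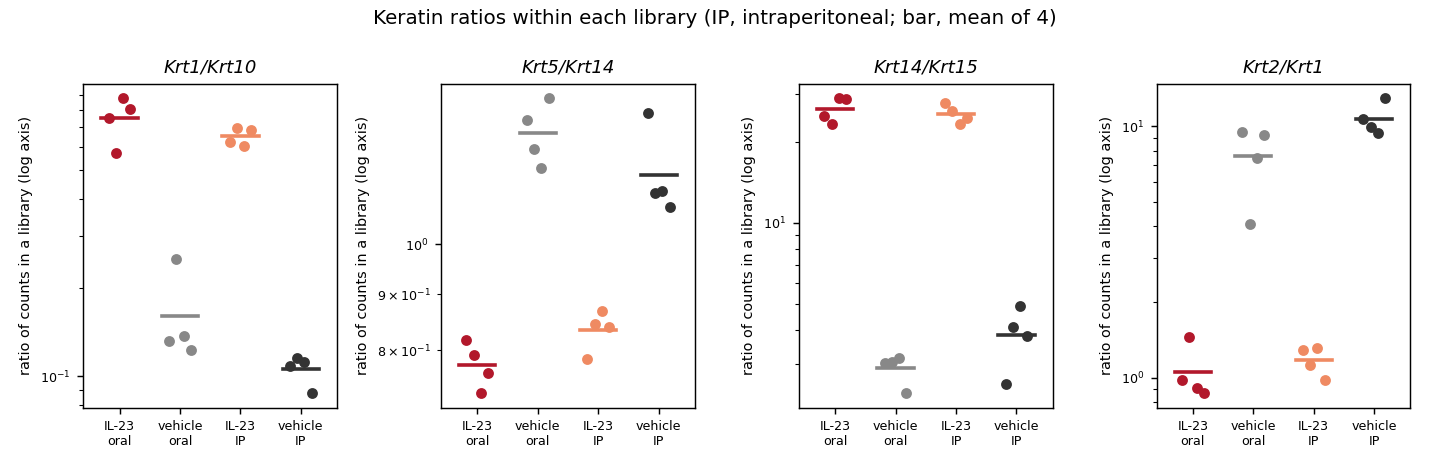
Ratios of counts within each library on a log axis (points) with the mean of 4 libraries (bar), for 4 keratin pairs. Krt1/Krt10 and Krt14/Krt15 are higher in IL-23 libraries and Krt5/Krt14 and Krt2/Krt1 are lower, without overlap in either route.

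To compare levels between genes, CPM was divided by the length in kb of the longest coding transcript (GENCODE M21). In IL-23 oral libraries the order of levels per kb was Krt14 at 8410.1 ± 908 CPM per kb, Krt10 at 6204 ± 743, Krt5 at 5028 ± 374, Krt1 at 3934 ± 540.1 and Krt2 at 3801 ± 511 (SD, n = 4). Krt1 and Krt2 did not differ beyond their spread. In vehicle oral libraries the order was Krt14 at 4292 ± 740.4 CPM per kb, Krt5 at 4162 ± 545, Krt10 at 3016 ± 470.4, Krt2 at 2675 ± 400.5, Krt15 at 1474 ± 76.4 and Krt1 at 422 ± 199 (SD, n = 4). There, Krt14 and Krt5 did not differ beyond their spread, nor did Krt10 and Krt2. Krt1 thus stood at rank 4 with IL-23 and at rank 6 with vehicle, and Krt15 at rank 6 with IL-23 and rank 5 with vehicle, at 317 ± 3.14 CPM per kb in IL-23 oral libraries.

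With intraperitoneal dosing the IL-23 order was Krt10 at 7574 ± 2724 CPM per kb, Krt14 at 6891 ± 1279, Krt2 at 4630.1 ± 1809, Krt5 at 4426 ± 661, Krt1 at 4169 ± 1375 and Krt15 at 271 ± 40.3 (SD, n = 4). Krt10 and Krt14 did not differ beyond their spread, nor did Krt2, Krt5 and Krt1. The vehicle intraperitoneal order was Krt14 at 3952 ± 396 CPM per kb, Krt10 at 3594 ± 306, Krt5 at 3527 ± 330.2, Krt2 at 3232 ± 169, Krt15 at 1075 ± 260.1 and Krt1 at 325 ± 51.9 (SD, n = 4). Neighbours among the first 4 differed by less than the SD of the higher, though Krt14 lay above Krt10 in each of the 4 libraries. In all 4 groups Krt80, Krt78 and Krt77 closed the order, between 36.1 and 49.0 CPM per kb for Krt80, 8.89 and 16.6 for Krt78 and 2.43 and 7.75 for Krt77. The place of Krt10 rests on its transcript: divided by its shortest coding transcript it stood at rank 1 in all 4 groups, and the ranks of Krt1 did not move.

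Several of these directions depended on what the libraries were scaled to. Counts of 15 genes found in epithelia generally, Perp among them, summed to 6946 to 7681 CPM in IL-23 oral libraries, against 4170.1 to 4826 CPM in vehicle oral libraries, and to 5540.0 to 9065 CPM in IL-23 intraperitoneal libraries, against 4525 to 5059 CPM in vehicle intraperitoneal libraries. Of these 15 genes 9 rose and 1 fell with oral dosing, and 9 rose and 2 fell with intraperitoneal dosing. The shares of all genes called higher were 29.2% and 30.8%. Library 25 held the highest sum of its group and library 28 the lowest, as for the keratins, and vehicle oral library 51 the lowest of its own. Perp, a desmosome-associated membrane protein gene, gave 62.1% to 68.5% of those counts, so the sum follows it closely.

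Per 1000 pan-epithelial counts, Krt5 had 1499 ± 79.4 counts in IL-23 oral and 1974 ± 139 in vehicle oral libraries, and 1334 ± 149 in IL-23 intraperitoneal and 1609 ± 173 in vehicle intraperitoneal libraries (SD, n = 4 each). Krt1 had 1307 ± 131 in IL-23 oral and 222 ± 99.3 in vehicle oral libraries, and 1362 ± 194 in IL-23 intraperitoneal and 165 ± 25.5 in vehicle intraperitoneal libraries. Krt15 had 73.3 ± 2.71 in IL-23 oral and 543 ± 10.3 in vehicle oral libraries, and 63.2 ± 6.66 in IL-23 intraperitoneal and 381 ± 108 in vehicle intraperitoneal libraries. Krt80 had 19.3 ± 1.90 in IL-23 oral and 40.0 ± 1.74 in vehicle oral libraries, and 23.1 ± 4.497 in IL-23 intraperitoneal and 39.7 ± 2.32 in vehicle intraperitoneal libraries. On this scale Krt1 was still higher and Krt15 still lower with IL-23, and Krt5 and Krt80 were lower.

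Scaled to those genes and tested by edgeR, Krt1 still rose (2.56 oral, 3.04 intraperitoneal), Krt10 rose (0.37, 0.43), Krt15 fell by 2.89 and 2.59, and Krt14 rose with oral dosing (0.30, edgeR adjusted p = 0.0141) but did not pass with intraperitoneal dosing (0.20, edgeR adjusted p = 0.095). Krt5 turned from higher to lower, at -0.40 (edgeR adjusted p = 0.00141) with oral dosing and -0.27 (edgeR adjusted p = 0.0212) with intraperitoneal dosing. Krt2 turned to -0.16 (edgeR adjusted p = 0.274) and -0.13 (edgeR adjusted p = 0.376), and neither passed. Krt78 stood at 0.13 (edgeR adjusted p = 0.488) and -0.21 (edgeR adjusted p = 0.276). Krt80 fell by 1.05 (edgeR adjusted p = 4.87e-07) and 0.78 (edgeR adjusted p = 1.76e-05), and Krt77 fell by 2.03 (edgeR adjusted p = 0.000529) and 1.82 (edgeR adjusted p = 0.0014). This scaling moved the median of all genes to -0.74 with oral and -0.59 with intraperitoneal dosing, and the share of calls that were higher to 8.3% and 9.96%, against 46.2% and 49.9% with TMM factors. Plain library sizes gave medians of -0.26 and -0.23 and shares of 31% and 31.5%; they ended the calls of Krt2 in both routes (0.32 and 0.28) and of Krt5 with intraperitoneal dosing (0.10), and called Krt80 lower in both routes (by 0.58 and 0.38) and Krt77 lower with intraperitoneal dosing (by 1.36).

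**Figure D4:**
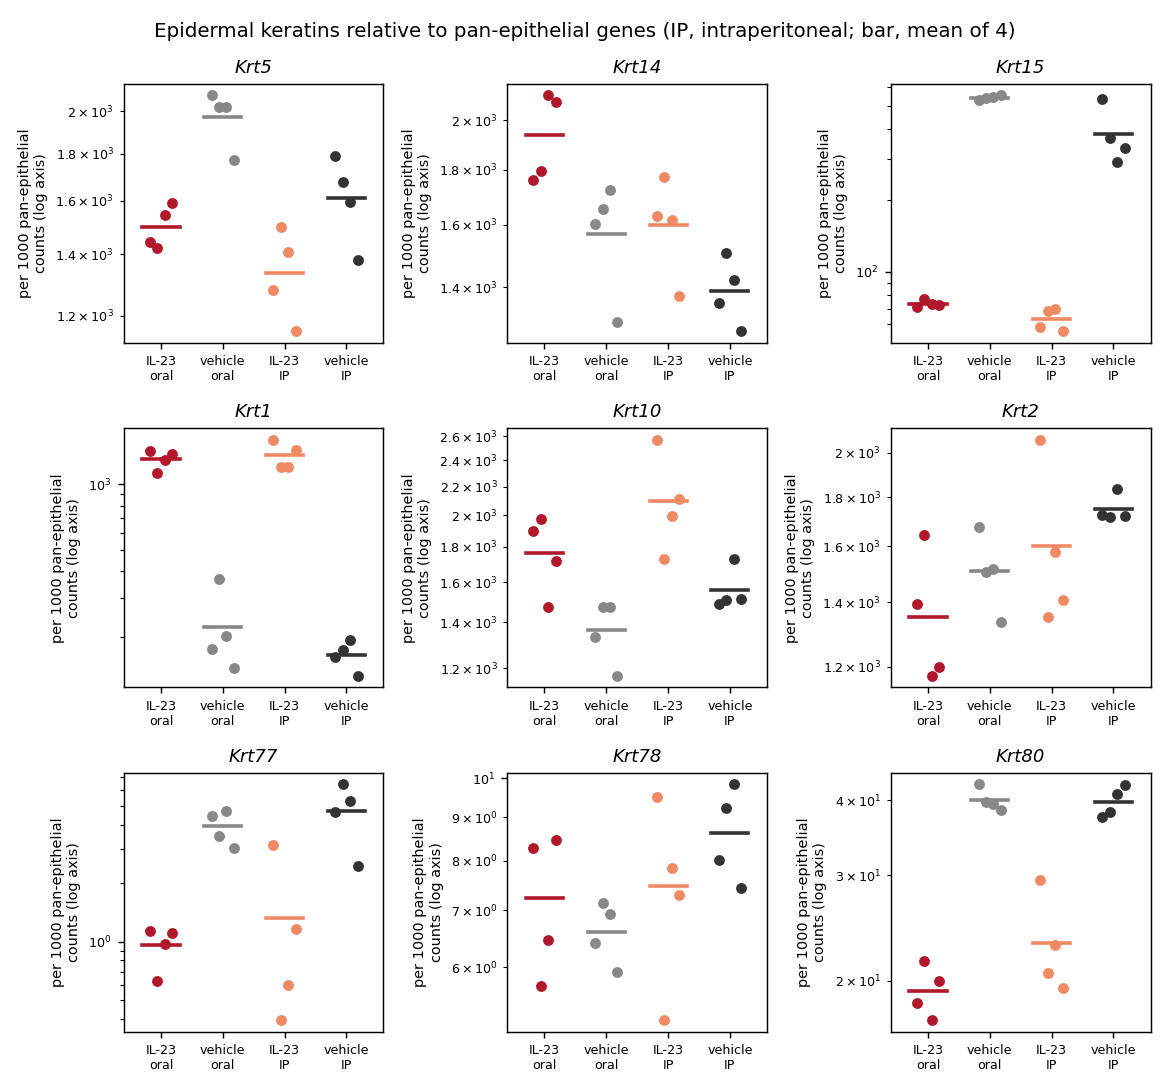
Counts of each keratin per 1000 counts of 15 pan-epithelial genes in the same library, on a log axis (points), with the mean of 4 libraries (bar). Krt1 stays higher and Krt15 lower in IL-23 libraries, and Krt80 is lower without overlap.

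The 4 keratins of activated epidermis all rose in both routes, and under each scaling tried. Krt16 averaged 5953 CPM in IL-23 oral and 159.8 CPM in vehicle oral libraries, a log2 fold change of 5.22 ± 0.65 (SE; edgeR adjusted p = 3.6e-06), and its intraperitoneal change was 5.62 ± 0.67 (edgeR adjusted p = 2.48e-06). The changes of Krt6b were 4.61 oral and 5.97 intraperitoneal, those of Krt6a 3.40 and 3.95, and those of Krt17 2.81 and 2.70. Krt6a and Krt6b share 49.5% and 50.1% of their 50-base windows with other genes, among them each other and Krt5. Krt16 shares 37.6%, with Krt14 and Krt17 among the genes sharing. The split of reads among such genes is uncertain. Of 12 other epithelial keratins 8 were tested, of which 2 rose and 3 fell with oral dosing, and 1 rose and 3 fell with intraperitoneal dosing. Over all genes, 29.2% and 30.8% were called higher and 34% and 30.9% lower. Krt75, a companion layer keratin, rose by 1.06 and 1.35, and the simple-epithelium keratins Krt7 and Krt8, all under 6 CPM on average, fell, with values of -1.70 and -2.11 for Krt7 and -1.496 and -2.16 for Krt8.

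Genes that anchor basal cells to the basement membrane were called lower or did not pass. Of 12 such genes 0 rose and 11 fell with oral dosing, with a median log2 fold change of -0.60, and 0 rose and 8 fell with intraperitoneal dosing, with a median of -0.59, where 34% and 30.9% of all genes were called lower. Dst, which links keratins to hemidesmosomes, fell by 1.89 oral and 1.69 intraperitoneal, Col7a1 (anchoring fibrils) by 1.33 and 1.27, and Col17a1 (a hemidesmosome collagen) by 1.32 and 1.17. Col17a1 averaged 1259 ± 109 CPM in IL-23 oral and 3144 ± 139 CPM in vehicle oral libraries (SD, n = 4 each). 

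Of 18 tested genes of suprabasal differentiation, 13 rose, 1 fell and 4 did not pass in each route, with medians of 1.55 oral and 1.24 intraperitoneal. Among all genes tested, 29.2% were called higher with oral and 30.8% with intraperitoneal dosing. Tgm1, which crosslinks the cornified envelope, rose by 2.63 and 2.07, and Casp14, a protease of cornification, by 2.46 and 2.19. Flg2, a filaggrin relative of the granular layer, fell, at -4.96 ± 0.45 oral (SE; edgeR adjusted p = 1.28e-07) and -5.18 ± 0.45 intraperitoneal (edgeR adjusted p = 1.13e-07), averaging 10.4 CPM in IL-23 oral and 331 CPM in vehicle oral libraries. Scaled to pan-epithelial genes, 13 rose and 4 fell with oral dosing, and 11 rose and 5 fell with intraperitoneal dosing. Over all genes, 8.3% and 9.96% of the calls under that scaling were higher. Without library 25, 3 of the 18 fell with intraperitoneal dosing. 

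Of 27 genes for regulators of keratin expression, 15 rose and 3 fell with oral dosing, and 12 rose and 4 fell with intraperitoneal dosing, with medians of 0.26 and 0.24. Among all genes tested, 29.2% were called higher and 34% lower with oral dosing, and 30.8% and 30.9% with intraperitoneal dosing. As 63.3% and 61.7% of all genes were called, the number of calls alone does not set this list apart. The differentiation regulators Ovol1, Grhl3 and Zfp750 rose most, by 2.09, 1.87 and 1.36 oral and by 1.26, 1.48 and 1.26 intraperitoneal. Trp63, the master regulator of stratified epithelia, which drives Krt14, did not pass (0.20, edgeR adjusted p = 0.104, and 0.24, edgeR adjusted p = 0.0528). The list's direction moved with the scaling: relative to pan-epithelial genes 7 rose and 17 fell with oral dosing, and 5 rose and 14 fell with intraperitoneal dosing. Grhl2 stands in both lists. That scaling called 10971 of 14671 genes with oral dosing, 8.3% of them higher, and 9961 with intraperitoneal dosing, 9.96% of them higher. The shift is thus not particular to this list.

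Of 13 genes for keratin partners, mostly desmosomal proteins to which keratin filaments attach, 9 rose and 2 fell with oral dosing, and 8 rose and 3 fell with intraperitoneal dosing, with medians of 0.57 and 0.54. The shares over all genes were 29.2% higher and 34% lower with oral dosing, and 30.8% and 30.9% with intraperitoneal dosing. The desmosomal cadherin gene Dsc2 rose by 1.27 and 1.02, while Dsg2 fell by 1.06 and 1.05 and the plakophilin gene Pkp2 by 1.18 and 0.80. Relative to pan-epithelial genes 2 rose and 5 fell with oral dosing, and 2 rose and 4 fell with intraperitoneal dosing. Perp, which gave most of the pan-epithelial counts, is itself desmosome-associated, so that scaling sets this list against a gene of its own kind. The direction of this list too moved with the scaling, as did that of all genes, with 8.3% and 9.96% of all calls higher.

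**Figure D5:**
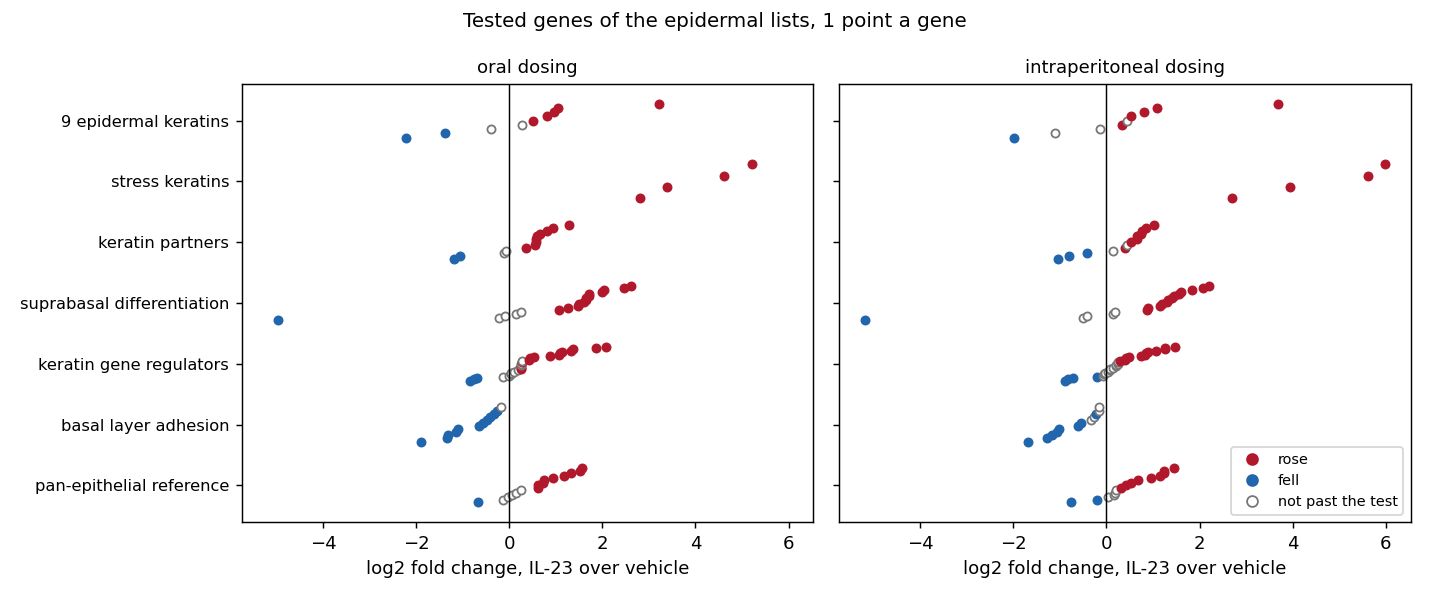
Log2 fold change, IL-23 over vehicle, of each tested gene in 7 lists, with oral and intraperitoneal dosing; red genes rose, blue genes fell and open grey genes did not pass. Every basal adhesion gene lies below 0 and the 4 stress keratins above 2, under TMM scaling. Relative to pan-epithelial genes, 17 of 27 regulators and 5 of 13 partners fell with oral dosing, and 14 and 4 with intraperitoneal dosing. Under that scaling 8.3% and 9.96% of the calls over all genes were higher.

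Markers of other cells and of proliferation moved with the agent in the same libraries. Over all genes, 29.2% were called higher and 34% lower with oral dosing. The shares with intraperitoneal dosing were 30.8% and 30.9%. All 10 proliferation genes rose in both routes, with medians of 1.13 oral and 1.02 intraperitoneal. Relative to pan-epithelial genes 5 of them rose with oral and 7 with intraperitoneal dosing, with medians of 0.45 and 0.48, and 0 fell. Under that scaling 8.3% and 9.96% of the calls over all genes were higher. All 15 skeletal muscle genes fell in both routes, their sum at 2107 to 4016 CPM in IL-23 oral and 6159 to 10160.7 CPM in vehicle oral libraries, and 2501 to 2820 CPM in IL-23 intraperitoneal and 4909.8 to 6381 CPM in vehicle intraperitoneal libraries. Of 10 adipocyte genes 9 fell in each route, of 8 tested cartilage genes 5 fell with oral and 6 with intraperitoneal dosing, and of 8 tested neutrophil genes 6 rose in each route. Of 10 tested hair follicle genes 1 rose and 3 fell with oral dosing and 1 rose and 5 fell with intraperitoneal dosing. Their sum ran from 47.5 to 69.7 CPM in IL-23 oral and 80.9 to 97.2 CPM in vehicle oral libraries, and from 36.6 to 49.7 CPM in IL-23 intraperitoneal and 76.8 to 88.4 CPM in vehicle intraperitoneal libraries. Of 9 tested T cell genes 4 rose with oral and 7 with intraperitoneal dosing, and of 12 interferon response genes 2 rose with oral and 10 with intraperitoneal dosing. Relative to pan-epithelial genes 0 T cell genes rose and 1 fell with oral dosing, and 4 rose with intraperitoneal dosing. Of the interferon genes 1 and 7 rose under that scaling. The interferon counts in both routes, and the T cell count with intraperitoneal dosing, moved on leaving out single libraries. Without library 28, 8 interferon genes rose with oral and 7 with intraperitoneal dosing, and 4 and 3 T cell genes. Without library 25, 5 interferon genes rose with oral and 11 with intraperitoneal dosing. Neither library is in an oral group, but all 4 groups share 1 estimate of the spread per gene. The oral interferon median was 0.76 with all libraries, 0.79 without library 28 and 0.77 without library 25. Over all genes, 9768 and 9464 were called with oral dosing without library 28 and 25, against 9280 with all. The part of these cell types in the keratin changes was not tested beyond a fit with the muscle level as a covariate, in which 1224 of 14671 genes were called with oral dosing, 2 of the 9 keratins among them, and 2617 with intraperitoneal dosing, 3 of the 9 among them. The muscle level itself differs between the agents, so that fit cannot tell the 2 apart. In it the log2 fold changes of Krt14 were 1.29 oral and 1.03 intraperitoneal, and those of Krt10 1.18 in each route. Those of Krt5 were 0.56 and 0.54 and those of Krt2 0.51 and 0.52. Of these only Krt14 with intraperitoneal dosing was called (edgeR adjusted p = 0.0325). Krt15 stood nearer to 0 in that fit, at -1.85 and -1.71, as did Krt80, at -0.25 and -0.043.

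Within groups, the keratins varied together. Over the 16 libraries' deviations from their group means in log2 CPM, Pearson's r was 0.94 for Krt2 with Krt80, 0.93 for Krt10 with Krt2 and 0.91 for Krt5 with Krt14, and these were 0.92, 0.90 and 0.90 without library 28. Krt15 followed the others least, at 0.23 (Krt1) to 0.58 (Krt5), and at 0.076 (Krt10) to 0.51 (Krt5) without library 28. These values share libraries and scaling factors and are a description. Libraries 25 and 51, extreme in their groups for 9 of 9 keratins and in the pan-epithelial sum, were kept in both sets of values. The part of epithelial content in this was not tested. Krt1 and Krt10, which pair as proteins, had an r of 0.74.

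By the same measure, over 11899 candidate genes that are no keratins, the genes most like each keratin were as follows. Krt5 was nearest to Uqcrh, Smdt1 and Manf, at 0.92 to 0.91, and Krt14 to Aldoa, Lgals7 and Ccdc124, at 0.96 to 0.94. Krt15 had weaker matches in Supt5, Tmed3 and Snhg8, at 0.83 to 0.82. Krt1 was nearest to Rptn, Casp14 and Klk13, at 0.89 to 0.86, and Krt10 to Gjb5, Susd2 and Hal, each at 0.94. Krt2 was nearest to 2300005B03Rik, Shroom3 and Klc3, at 0.95 to 0.93, and Krt80 to Rhbg, Shroom3 and Yipf2, at 0.96 to 0.93. Krt77 was nearest to Clic3, Lce1i and 2310050C09Rik, at 0.98 to 0.96, and Krt78 to Susd2, Nccrp1 and Asprv1, at 0.95 to 0.94.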

How the data were processed

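The authors deposited unnormalized read counts by gene. The submitters' processing notes name FastQC, STAR, featureCounts (Subread 1.5.0) and GRCm38, and the labels' protocols a TruSeq Stranded kit. Strand setting, annotation and treatment of multi-mapping reads: not given in the sources used here. Tests ran in edgeR 4.0.16 (R 4.3.3) on those counts, with TMM factors, filterByExpr with a minimum count of 10 (14671 genes kept), and a quasi-likelihood fit of 4 group means with 12 residual degrees of freedom. Each SE was derived from the fold change and its F statistic (size of the log2 change divided by root F). P-values were adjusted by Benjamini-Hochberg over all genes tested, 2-sided. DESeq2 1.42.0 and limma 3.58.1 (voom), RLE factors, plain library size, pan-epithelial scaling, no count filter, only the groups compared, a muscle covariate and leaving out each library were alternatives; list counts under other scalings and without libraries 25 or 28 were added after seeing the data. Transcript lengths came from GENCODE M21, not RefSeq as first planned. Beside the 9 keratins and 4 stress keratins, up to 3 genes per list with the largest mean change past the threshold, and the 3 genes most like each keratin, are named. The 16 lists hold 201 names, 198 found. Of the other cell type lists only counts and sums are given. Trp63, Perp, Grhl2 and those sharing reads or positions with a keratin were named after their values were seen. The members and lists were chosen with earlier results of these data known. The scripts were tested on simulated data with few genes changed, as many higher as lower. Scaling under a broad change was not tested there.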

Additional observations from a re-analysis of the deposited data

Results flagged for a closer look

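In vehicle oral libraries, 2 keratins had 1 library far from the other 3. Krt14 stood at 5423.3 CPM in library 51, against 7731.8 to 8173.3 CPM in the others, a gap of 0.839 of the group's range. Krt15 stood at 2312.6 CPM in library 51, against 2554.9 to 2595.9 CPM in the others, a gap of 0.855. Both exceed the 95% limit of Dixon's test for 4 libraries. Chance flags about 1 in 20 groups, and 36 were checked. Without library 51 the oral change of Krt14 was 0.88 and that of Krt15 was -2.23 on the log2 scale.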

How the results depend on the processing

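Krt14 with oral dosing and Krt1, Krt10 and Krt15 in both routes kept their direction in every alternative run, and their call in all but the fit with the muscle covariate, which ended the calls of Krt14 with oral dosing (1.29, adjusted p = 0.0563) and Krt10 in both routes (1.18 in each, adjusted p = 0.174 and 0.0623). That covariate left 1224 genes and 2 keratins called with oral dosing and 2617 genes and 3 keratins with intraperitoneal dosing, and separates the agents itself. DESeq2 found 1 gene for the contrast of both routes' IL-23 effects, 57 between routes in IL-23 libraries and 1 in vehicle libraries, where edgeR called 0. Scaling to pan-epithelial genes turned Krt5 (-0.40 oral, -0.27 intraperitoneal), Krt2 (-0.16, -0.13) and Krt78 with intraperitoneal dosing (-0.21). With the shortest coding transcript, Krt10 had 23324 and 28474 CPM per kb with IL-23 (oral, intraperitoneal) and 11339.8 and 13510.4 with vehicle, and Krt80 had 50.4 and 61.9 with IL-23 and 65.8 and 68.3 with vehicle. Differences between routes changed sign, and none was called: Krt5 -0.021 (muscle covariate); Krt10 -0.014 (plain library size), -0.041 (limma-voom) and -0.0041 (muscle covariate); Krt2 -0.0014 (RLE factors and DESeq2), -0.039 (plain library size) and -0.064 (limma-voom); Krt77 -0.32 (limma-voom). In these the cause was not tested.

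Leaving out each library in turn gave 8457 to 9768 genes and 5 to 9 keratins called with oral dosing, and 8310.0 to 9092 genes and 4 to 7 keratins with intraperitoneal dosing, and 0 in the 3 route comparisons. Krt80 with intraperitoneal dosing ran from -0.42 to 0.035. The differences between routes ran from -0.040 to 0.13 for Krt5, -0.21 to 0.20 for Krt10, -0.28 to 0.17 for Krt2, -0.83 to 0.62 for Krt77 and -0.040 to 0.39 for Krt80. With only the groups compared, Krt5 (0.32, adjusted p = 0.0744) and Krt2 (0.51, adjusted p = 0.0893) were not called with intraperitoneal dosing, and Krt80 was called with oral dosing (-0.36, adjusted p = 0.00233). RLE factors and DESeq2 called Krt5 with oral dosing (0.31 in each, adjusted p = 0.0484 and 0.0161). With intraperitoneal dosing, limma-voom called Krt77 (-1.74, adjusted p = 0.00599) and not Krt2 (0.45, adjusted p = 0.0544). No paired analysis was possible because no pair of samples shares a number in the titles. Depth limits Krt77 most, at 19 to 335 counts per library.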
